A study of Homo sapiens with 8 samples.

Results

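Transcript levels of 34 genes of cholesterol and fatty acid synthesis, their regulators and 3 cholesterol efflux genes were followed through a differentiation to a posterior neural fate of ESI017 cells, a human embryonic stem cell line. The genes were taken by symbol from a fixed list, and all 34 were found among the 35940 gene symbols of the table. Wild-type cells were held in N2B27, a serum-free medium, with the compounds labelled SB (10 μM) and LDN (100 nM), and recombinant WNT3A protein (300 ng/mL) was added at 34 h. RNA was taken from 2 libraries at each of 34, 42, 50 and 72 h, that is before WNT3A and 8, 16 and 38 h after it, and read as poly(A) RNA. Every group therefore shares the cell line, the medium, SB and LDN. All samples come from 1 cell line. The libraries include no arm lacking WNT3A, so the response to WNT3A and the passage of time cannot be told apart in any comparison with 34 h. The 2 replicates are described as independent biological replicates and carry the batch numbers 1 and 2.

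Cells build cholesterol from acetyl-CoA through mevalonate, isoprenoid pyrophosphates and squalene, which is closed into a ring and trimmed to the finished sterol. The enzymes are controlled together by the SREBP transcription factors, made from SREBF1 and SREBF2. The escort protein SCAP carries an SREBP out of the endoplasmic reticulum when sterols are scarce, and the INSIG proteins hold it back when sterols are ample. LXR nuclear receptors respond to oxidised sterols and raise the cholesterol exporters ABCA1 and ABCG1 and the ubiquitin ligase MYLIP, which removes lipoprotein receptors from the cell surface. In the developing nervous system cells depend largely on sterol made in place, and hedgehog and WNT ligands are themselves modified with cholesterol or a fatty acid.

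The values are TPM, a share of each library's transcripts scaled by transcript length, so levels of different genes can be set side by side. A fold is a ratio of mean TPM, a log2 change is on the log2(TPM + 1) scale, and a gene is said to have changed at an adjusted p under 0.05 in limma over 14908 tested genes. All 34 members passed the filter of 1 TPM in at least 2 libraries. TPM carries no read depth. Each library had 13860 to 14004 genes at 1 TPM or more, and mitochondrial transcripts held 8.70% to 11.2% of the TPM. The summed level of 5 pluripotency markers (POU5F1, SOX2, NANOG, LIN28A, TDGF1) was 3042 to 3047 TPM at 34 h and 1698 to 1783 TPM at 72 h, and that of 5 neural progenitor markers (SOX1, SOX2, PAX6, NES, CDH2), a list that shares SOX2, went from 361 to 378 TPM to 674 to 717 TPM. Of the pluripotency markers NANOG was low from the start, at 1.59 to 2.46 TPM at 34 h. In bulk RNA, a change in the share of a cell type and a change in RNA per cell cannot be told apart.

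By mean, summed transcript levels of the sterol synthesis genes were highest at 42 h and lowest at 72 h. Those of the 3 efflux genes were lowest at 42 h. The share of all TPM held by the 34 members was 0.337% to 0.375% in the 34 h libraries, 0.433% to 0.497% in the 42 h and 50 h libraries, and 0.342% to 0.366% in the 72 h libraries. Every 42 h and 50 h library was thus above every 34 h and 72 h library. In pairs of levels, sums are given low to high, and for single genes replicate 1 comes first. The 7 mevalonate genes summed to 794 and 832 TPM at 34 h, then 1152 and 1277 at 42 h, 1109 and 1217 at 50 h, finally 667 and 722 at 72 h. The 11 genes of the squalene and sterol ring steps peaked at 42 h, with 1331 and 1505 TPM. They had 1010 and 1104 TPM at 34 h, and at 72 h 831 and 907 TPM. The 7 fatty acid genes had their highest mean sum at 50 h, with 1629 and 1910 TPM against 1225 and 1431 TPM at 34 h. Their 42 h libraries, with 1525 and 1712 TPM, overlapped those at 50 h, and the 72 h libraries had 1486 and 1596 TPM. The sum of the 3 efflux genes went the other way, from 26.9 and 31.4 TPM at 34 h to 12.6 and 13.9 TPM at 42 h. Of these genes ABCA1 had its lowest mean at 42 h, but ABCG1 and MYLIP had theirs at 72 h.

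**Figure D1:**
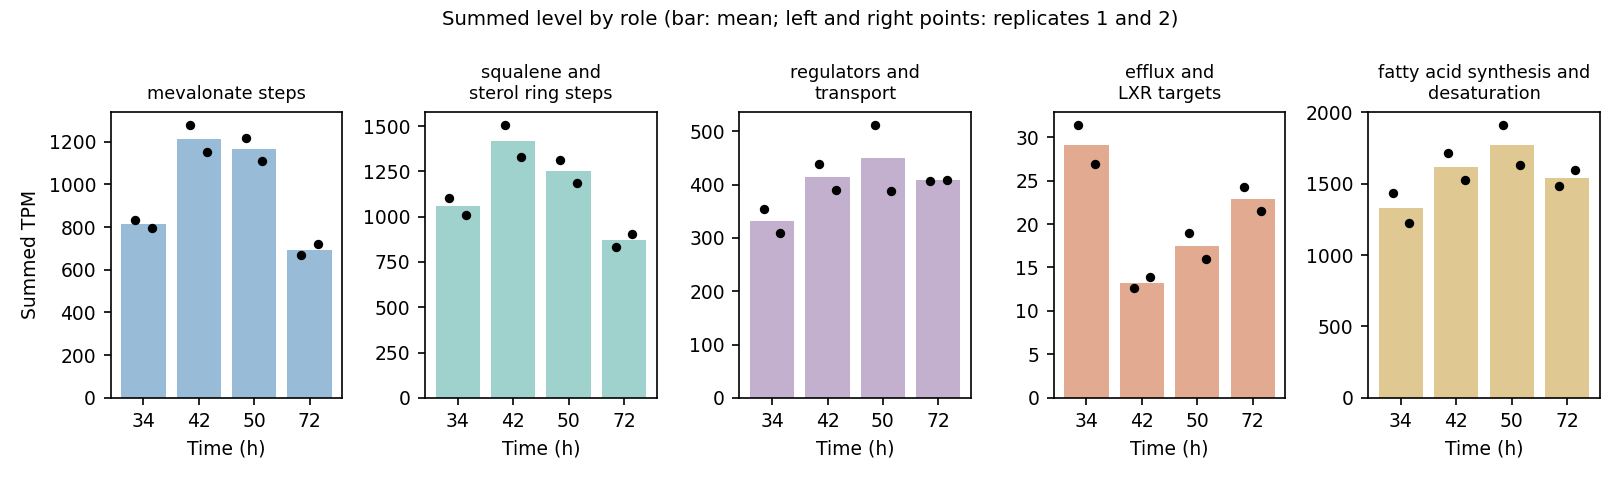
Summed TPM (linear axis from 0, a separate scale per panel) of the member genes of each role at 34, 42, 50 and 72 h, with bars at the mean and points at the 2 replicates. By mean, mevalonate and sterol ring genes are highest at 42 h and fatty acid genes at 50 h. For mevalonate and fatty acid genes the 42 h and 50 h libraries overlap. The sum of the efflux genes is lowest at 42 h, at 12.6 and 13.9 TPM.

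By limma's F-test of any change from 34 h, 21 of the 34 members changed at some time, against 17.4% of all tested genes. Without replicate 2 at 34 h, and without replicate 1 or 2 at 72 h, 13, 12 and 13 members passed. The mean level was highest at 42 h for 15 of the 34 members and at 50 h for 10, where 16.6% and 20.0% of all tested genes had their highest mean at those times. Of the 18 sterol synthesis genes 12 peaked at 42 h. The 5 members with the highest mean at 72 h were PMVK, TM7SF2, SCAP, ABCA1 and FADS1, and the 4 with the highest mean at 34 h were INSIG2, ABCG1, MYLIP and ACACA.

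**Figure D2:**
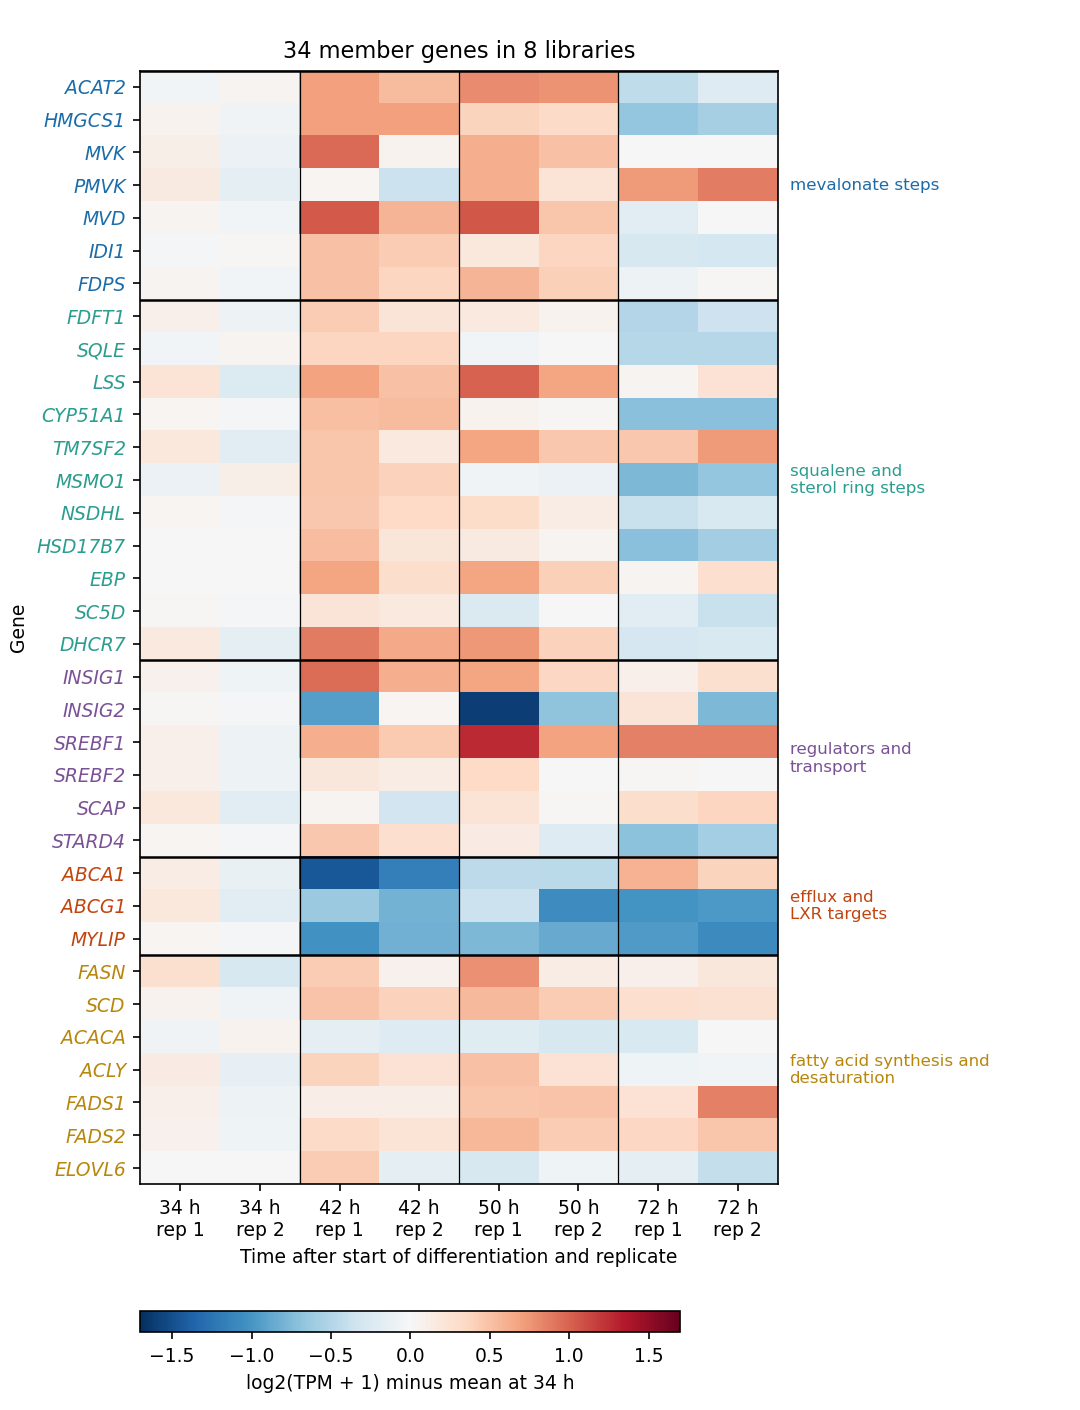
Heat map of log2(TPM + 1) minus the gene's mean at 34 h (color scale) for the 34 members (rows, by role) in the 8 libraries (columns). Sterol synthesis rows are mostly red at 42 h and blue at 72 h, the ABCA1, ABCG1 and MYLIP rows are blue at 42 h, and SREBF1 stays red to 72 h.

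The first comparison set 42 h, 8 h after WNT3A, against 34 h. Of the 34 members 7 were raised and 2 lowered, where 1.78% of all tested genes were raised and 0.792% lowered (2.58% in either direction). The raised genes were ACAT2, HMGCS1, IDI1, CYP51A1, DHCR7, INSIG1 and SCD, and the lowered genes were ABCA1 and MYLIP. The median log2 change was 0.45 over the 18 sterol synthesis genes, 0.25 over the 7 fatty acid genes and -0.93 over the 3 efflux genes, against 0.01 over all tested genes. The fatty acid median was 0.13 without replicate 2 at 34 h, and 0.12 and 0.38 without replicate 1 or 2 at 42 h. Both 42 h libraries lay above both 34 h libraries for 15 of the 18 sterol synthesis genes and for 23 of all 34 members, where 22.2% of all tested genes did so; both lay below for 4 members and for 20.2% of all genes. PMVK was the 1 sterol synthesis gene with a lower mean at 42 h.

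HMGCS1, which makes HMG-CoA (chromosome 5, 43289395 to 43313512, minus strand), had 248 and 227 TPM at 34 h, then 386 and 383 at 42 h, 309.7 and 297 at 50 h, finally 149 and 159.9 at 72 h. The 42 h libraries were above all others and the 72 h libraries under all others. HMGCS1 was 1.62-fold higher at 42 h than at 34 h, a log2 change of 0.70 ± 0.08 (SE), with 0.64 and 0.76 within replicates 1 and 2 (limma adjusted p 0.00350). ACAT2, the cytosolic thiolase that starts the pathway (chromosome 6, 159760328 to 159779055, plus strand), had 126 and 133 TPM at 34 h, then 211 and 189 at 42 h, 227 and 219.9 at 50 h, finally 95.9 and 111 at 72 h, with no overlap between the 34 h libraries and the 42 or 50 h libraries. Its log2 change at 42 h was 0.62 ± 0.10 (SE) (adjusted p 0.0172). Exons of ACAT2 share 397 bases (9.23% of its exonic length) with TCP1, 1141 bases (26.5%) with SOD2 and 1458 bases (33.9%) with SOD2-OT1 on the opposite strand. Mean levels were 316 TPM for TCP1 and 0.0784 TPM for SOD2, against 164 TPM for ACAT2. Whether the counting used strand is not stated, so reads from those stretches cannot be assigned. Exons of HMGCS1, IDI1, FDPS, LSS, CYP51A1, SREBF2, ACLY and STARD4 overlap annotated antisense genes in the same way, those of SREBF1 share 556 bases with RAI1, and those of MVK share 306 bases with MMAB. CYP51A1 shares 2844 exonic bases (79.4%) with AC000120.2 on the same strand, a gene with a mean of 0.0528 TPM, so how its reads were divided is uncertain. IDI1, the isomerase that readies the isoprenoid unit for chain building, had 83.2 and 84.8 TPM at 34 h, then 119 and 114 at 42 h, 95.4 and 109 at 50 h, finally 69.6 and 68.3 at 72 h. Its rise of 0.47 was near the threshold (adjusted p 0.0449, and 0.0573 with the replicate number as a block).

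Among the ring enzymes, CYP51A1, the lanosterol demethylase (chromosome 7, 92112151 to 92134803, minus strand), had 58.2 and 55.6 TPM at 34 h, then 81.7 and 83.1 at 42 h, 59.1 and 57.9 at 50 h, finally 34.2 and 34.3 at 72 h. Its replicates differed little at any time, and the 42 h libraries were above all others, 1.45-fold over 34 h (log2 change 0.53 ± 0.09 (SE), adjusted p 0.0215). DHCR7, which carries out the last reduction to cholesterol (chromosome 11, 71428193 to 71452868, minus strand), had 109 and 86.8 TPM at 34 h, then 180.5 and 153 at 42 h, 163 and 128 at 50 h, finally 79.7 and 81.4 at 72 h. Replicate 1 was the higher one at 34, 42 and 50 h. The rise at 42 h was 1.70-fold, 0.76 ± 0.15 (SE) on the log2 scale, with 0.72 and 0.81 within replicates 1 and 2 (adjusted p 0.0422). At 50 h DHCR7 did not pass against 34 h (adjusted p 0.0708) but did with the replicate block (0.0276).

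INSIG1 (chromosome 7, 155297776 to 155310235, plus strand), the retention protein that is itself an SREBP target, had 39.6 and 35.5 TPM at 34 h, then 73.7 and 58.0 at 42 h, 60.1 and 48.3 at 50 h, finally 39.8 and 45.4 at 72 h. Both 42 h libraries were above every other time point's except replicate 1 at 50 h, which lay between them. The rise at 42 h was 1.75-fold, or 0.78 ± 0.16 (SE), with 0.88 and 0.69 within replicates 1 and 2 (adjusted p 0.0429). SCD, which places the double bond in palmitate and stearate and so supplies the lipid that is attached to WNT proteins, had 374 and 343 TPM at 34 h, then 501 and 472 at 42 h, 525 and 483 at 50 h, finally 436 and 427 at 72 h. It was the 1 fatty acid gene raised at 42 h, by 0.44 ± 0.08 (SE) (adjusted p 0.0296).

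ABCA1, which exports cholesterol to apolipoproteins (chromosome 9, 104781002 to 104928237, minus strand), had 11.0 and 9.09 TPM at 34 h, then 3.04 and 3.91 at 42 h, 7.08 and 6.98 at 50 h, finally 15.6 and 13.3 at 72 h. The 42 h libraries were under all others and the 72 h libraries above all others. At 42 h the mean was 0.346 times that at 34 h, a log2 change of -1.30 ± 0.17 (SE), with -1.57 and -1.04 within replicates 1 and 2 (adjusted p 0.00654). MYLIP (chromosome 6, 16129125 to 16148248, plus strand) had 12.0 and 11.5 TPM at 34 h, then 5.21 and 6.20 at 42 h, 6.45 and 5.99 at 50 h, finally 5.51 and 5.00 at 72 h, so both 34 h libraries stood above the other 6, and its log2 change at 42 h was -0.93 ± 0.16 (SE) (adjusted p 0.0201). ABCG1, the exporter to lipoprotein particles, had 8.45 and 6.31 TPM at 34 h, then 4.36 and 3.75 at 42 h, 5.44 and 2.97 at 50 h, finally 3.11 and 3.22 at 72 h. Its log2 change at 42 h was -0.72 with no overlap of the libraries, but it did not pass the test (adjusted p 0.253).

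The call of HMGCS1 at 42 h held in all 8 fits that left out 1 library (adjusted p 0.00606 to 0.0405); each of the other 8 calls was lost in 2 to 6 of them, with the direction kept throughout. The number of members called was 1 and 2 without replicate 1 or 2 at 34 h, 1 and 3 without replicate 1 or 2 at 42 h, 4 and 5 without replicate 1 or 2 at 72 h, and 12 without either 50 h library. The summed level of 7 mesoderm and endoderm markers went from 13.2 to 14.9 TPM at 34 h (1 of 7 at 1 TPM or more in both libraries) to 18.7 to 21.7 TPM at 42 h (4 of 7), with SOX17 at 0 at both times. Its members differed in direction, TBXT going from 0.831 and 1.16 to 11.4 and 7.92 TPM and FOXA2 from 11.9 and 13.4 to 7.02 and 7.73 TPM. Their part in the result was not tested. The summed level of 4 neural crest markers was 6.72 to 8.68 TPM at 34 h and 3.40 to 5.56 TPM at 42 h (2 and then 1 of 4 at 1 TPM or more in both libraries). FOXD3 went from 4.65 and 4.48 to 0.688 and 0.852 TPM, while SOX10 overlapped between the times. The pluripotency markers summed to 2571 to 2717 TPM at 42 h, under their 34 h range, but their members differed in direction. TDGF1 went from 743 and 785 to 366 and 352 TPM, and POU5F1 and SOX2 were lower too. LIN28A rose from 908 and 897 to 1075 and 1059 TPM, and NANOG overlapped between the times. The neural progenitor markers differed in direction as well, and their sum overlapped between the times. CDH2 went from 15.2 and 14.6 to 31.6 and 37.6 TPM and SOX1 from 1.63 and 2.14 to 2.96 and 2.34 TPM. SOX2 fell from 224 and 211 to 186 and 168 TPM, NES overlapped, and PAX6 stayed under 1 TPM. The part of these lists was not tested either. Markers of steroidogenic or hepatic cells, 6 genes, summed to 4.50 to 5.02 TPM at 34 h and 4.73 to 5.50 TPM at 42 h, with CYP7A1 listed at 0.

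**Figure D3:**
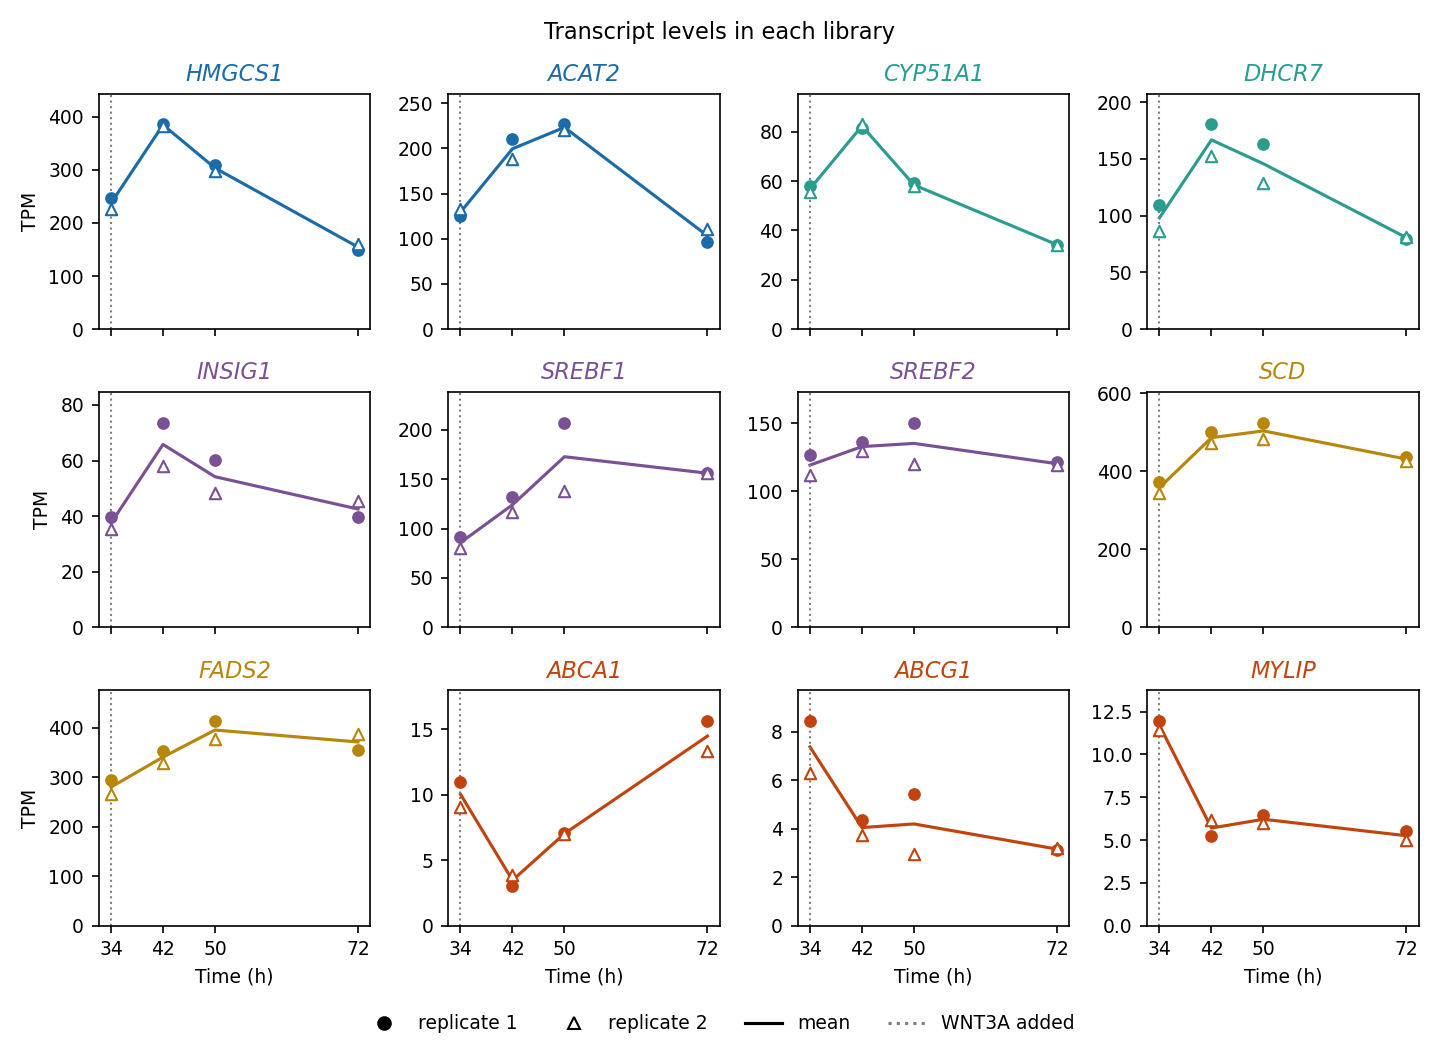
TPM (linear axes from 0) of 12 member genes against time after the start of differentiation, with replicate 1 as filled circles, replicate 2 as open triangles and a line through the means; the dotted line marks the addition of WNT3A at 34 h. HMGCS1, CYP51A1, DHCR7 and INSIG1 have their highest mean at 42 h, where ABCA1 is lowest; SREBF1 stays above its 34 h level to 72 h.

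RefSeq promoter windows on GRCh38.p14, 250 bases before to 50 after a start site, were at hand for 29 of the 34 members. A set of 4 motifs was searched on both strands. The sterol regulatory element, written TCACNCCAC, was in the window of 1 member, SREBF2, and in 1.56% of the 10750 tested genes with a window. The CCAAT box (CCAAT), which NF-Y binds beside SREBPs, was in 21 of the 29 members (72.4%) and in 42.9% of those genes. The GC box (GGGCGG) was in 28 members (96.6%) and in 77.5% of those genes, and the E-box (CACGTG) in 5 members (17.2%) and in 12.6%. The motifs do not contain one another, and a gene with several windows was counted once if any window held the motif. These are matches of letters and not shown binding sites. Only exact strings within these windows were searched, so a gene without a match is not shown to lack the element.

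The 140 bases next upstream of the GENCODE gene start, or for MYLIP of the RefSeq start that lies before it, are printed. They are given for 6 of the 9 genes that changed at 42 h, and for SREBF2 as the member whose window matched TCACNCCAC. Capitals mark CCAAT, or ATTGG where it lies on the other strand, and in SREBF2 also TCACCCCAC. The 4 raised genes printed and SREBF2 each hold at least 1 CCAAT box in this stretch, as does the lowered gene MYLIP with 2, and that of ABCA1 holds none. Of the other raised genes, DHCR7 has a CCAAT box in its RefSeq window, CYP51A1 has none in its window, and ACAT2 was not searched.
HMGCS1 (chr5:43313513-43313652, minus strand): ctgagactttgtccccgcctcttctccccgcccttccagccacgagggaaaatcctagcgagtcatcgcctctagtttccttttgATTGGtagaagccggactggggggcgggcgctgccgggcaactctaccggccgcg
IDI1 (chr10:1049171-1049310, minus strand): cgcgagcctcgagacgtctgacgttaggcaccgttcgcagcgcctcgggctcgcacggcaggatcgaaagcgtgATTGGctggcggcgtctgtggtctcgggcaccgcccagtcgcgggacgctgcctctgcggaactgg
INSIG1 (chr7:155297636-155297775, plus strand): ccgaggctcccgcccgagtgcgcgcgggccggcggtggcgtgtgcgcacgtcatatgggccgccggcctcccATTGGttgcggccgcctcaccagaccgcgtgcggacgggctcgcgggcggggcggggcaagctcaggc
SCD (chr10:100346984-100347123, plus strand): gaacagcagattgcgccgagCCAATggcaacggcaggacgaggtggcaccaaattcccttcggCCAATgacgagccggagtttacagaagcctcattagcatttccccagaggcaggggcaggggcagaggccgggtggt
SREBF2 (chr22:41832939-41833078, plus strand): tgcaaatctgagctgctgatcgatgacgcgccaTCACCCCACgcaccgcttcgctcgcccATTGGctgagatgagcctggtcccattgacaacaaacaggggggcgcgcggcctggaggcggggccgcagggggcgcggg
ABCA1 (chr9:104928238-104928377, minus strand): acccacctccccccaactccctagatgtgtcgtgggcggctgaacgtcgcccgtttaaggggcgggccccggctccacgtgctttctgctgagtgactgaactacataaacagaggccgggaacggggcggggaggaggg
MYLIP (chr6:16128946-16129085, plus strand): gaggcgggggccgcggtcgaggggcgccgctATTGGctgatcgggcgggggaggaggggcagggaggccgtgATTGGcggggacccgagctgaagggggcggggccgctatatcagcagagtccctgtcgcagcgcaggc

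At 50 h, 16 h after WNT3A, 7 members were raised and 1 was lowered against 34 h, where 3.52% and 2.74% of all tested genes were (6.26% in either direction). Both 50 h libraries lay above both 34 h libraries for 19 members and below for 6, against 28.3% and 20.1% of all tested genes. Raised were ACAT2, HMGCS1, FDPS, LSS, SREBF1, SCD and FADS2, and MYLIP was lowered. The median log2 change against 34 h was 0.49 over the mevalonate genes, 0.12 over the squalene and ring genes, 0.46 over the fatty acid genes and -0.72 over the efflux genes. The ring median was 0.20 without replicate 1 at 34 h, 0.06 without replicate 1 at 50 h and 0.06 with TMM rescaling. The fatty acid median was 0.24 without replicate 2 at 34 h and 0.25 without replicate 1 at 50 h, and the efflux median was -0.44 without replicate 2 at 50 h. FDPS, the farnesyl pyrophosphate synthase at the branch to sterols and protein prenylation, had 263 and 249 TPM at 34 h, then 363 and 329 at 42 h, 383 and 339 at 50 h, finally 241 and 259 at 72 h. Both 50 h libraries were above both 34 h libraries, by 0.49 ± 0.09 (SE) on the log2 scale (adjusted p 0.0201); at 42 h its change of 0.43 had an adjusted p of 0.0594. LSS, which closes the first ring system to lanosterol, had 76.1 and 54.8 TPM at 34 h, then 105 and 91.3 at 42 h, 130.1 and 103 at 50 h, finally 66.5 and 77.1 at 72 h, and its change at 50 h was 0.83 ± 0.18 (SE) (adjusted p 0.0309). LSS is the sum of 2 Ensembl rows, and with rows apart the call was lost (0.0833). ACAT2 stayed high, with a log2 change of 0.78 ± 0.10 (SE) (adjusted p 0.00316), and HMGCS1 passed narrowly (0.0419, and 0.0506 with the replicate block).

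SREBF1, which encodes the SREBP most tied to fatty acid synthesis (chromosome 17, 17810399 to 17837002, minus strand), had 91.2 and 80.2 TPM at 34 h, then 132 and 116 at 42 h, 207 and 138 at 50 h, finally 156 and 156 at 72 h. All later libraries were above both 34 h libraries, and replicate 1 at 50 h was the highest. Its log2 change was 0.53 at 42 h (adjusted p 0.217), 0.97 ± 0.17 (SE) at 50 h (0.0151) and 0.86 ± 0.17 (SE) at 72 h (0.00972). SREBF2, the main driver of the sterol genes, had 127 and 112 TPM at 34 h, then 136 and 129 at 42 h, 150.4 and 119.8 at 50 h, finally 121 and 119 at 72 h. It changed in no comparison, with adjusted p-values of 0.679, 0.480 and 0.946 against 34 h. SCAP had 55.6 and 43.1 TPM at 34 h, then 50.6 and 39.1 at 42 h, 58.0 and 49.8 at 50 h, finally 60.5 and 63.4 at 72 h, and its adjusted p-values were 0.823, 0.720 and 0.186. INSIG2, the second retention protein, had 10.3 and 9.88 TPM at 34 h, then 4.78 and 10.4 at 42 h, 2.65 and 5.91 at 50 h, finally 11.9 and 5.54 at 72 h. Its replicates differed by more than 2 times at 42, 50 and 72 h, and no contrast passed (adjusted p 0.761, 0.183 and 0.695).

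Among fatty acid genes, FADS2, the first desaturase of polyunsaturated fatty acids, had 295 and 265 TPM at 34 h, then 352 and 329.6 at 42 h, 414 and 377 at 50 h, finally 356 and 387 at 72 h. Every later library was above both 34 h libraries, by 0.50 ± 0.09 (SE) at 50 h (adjusted p 0.0172) and 0.41 ± 0.09 (SE) at 72 h (0.0152). SCD was 0.49 above 34 h at 50 h (0.0103). FASN, the fatty acid synthase, spanned 228 to 473 TPM, with replicate 1 above replicate 2 at 34, 42 and 50 h, and it passed in no contrast. ACLY, which makes cytosolic acetyl-CoA, had 153 to 239 TPM, ACACA, the carboxylase, 49.8 to 63.2 TPM, ELOVL6, the elongase, 57.1 to 103 TPM and FADS1, the second desaturase, 97.2 to 188 TPM, and none of these 4 passed in any contrast. FADS1 and FADS2 share 490 exonic bases on opposite strands. The closest was FADS1 at 72 h (log2 change 0.55, adjusted p 0.0522).

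The call of ACAT2 at 50 h held in all 8 fits without 1 library (adjusted p 0.00532 to 0.0321), and the other 7 were each lost in 2 to 8, that of HMGCS1 in all 8 (0.0705 to 0.239). Without replicate 1 or 2 at 34 h, 4 and 1 members were called, and without replicate 1 at 50 h 2 were. Over the same interval the summed pluripotency markers went from 3042 to 3047 TPM to 2325 to 2482 TPM. LIN28A and SOX2 rose against this sum, LIN28A from 908 and 897 to 1086 and 1165 TPM. The neural progenitor markers went from 361 to 378 TPM to 441 to 493 TPM. The neural crest markers went from 6.72 to 8.68 TPM to 2.90 to 3.95 TPM, with FOXD3 lower, PAX3 higher and SOX10 overlapping. The mesoderm and endoderm markers went from 13.2 to 14.9 TPM to 15.4 to 17.4 TPM, with TBXT higher and FOXA2 lower. The part of these lists in the result was not tested. Between 42 h and 50 h no member changed by limma (0 of 34, and 0 with the replicate block), with 10 at an unadjusted p under 0.05, as were 1394 of all 14908 tested genes. Of all tested genes 0.0939% were called there, 0.0604% raised and 0.0335% lowered. Both 50 h libraries lay below both 42 h libraries for 10 members, 7 of them among the 11 squalene and ring genes, and above for 6, against 15.8% and 21.5% of all tested genes. MSMO1, a sterol methyl oxidase, had 79.2 and 91.1 TPM at 34 h, then 119 and 111 at 42 h, 81.2 and 79.4 at 50 h, finally 49.6 and 53.4 at 72 h. SQLE, the squalene epoxidase, had 95.1 and 102 TPM at 34 h, then 127 and 127 at 42 h, 94.9 and 98.1 at 50 h, finally 70.2 and 70.2 at 72 h. In both genes the 50 h values overlapped the 34 h values, with adjusted p-values of 0.151 and 0.186 for the difference from 42 h.

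From 50 h to 72 h 13 members were lowered and 1 was raised, where 4.41% of all tested genes were lowered and 2.92% raised (7.33% in either direction). Both 72 h libraries lay below both 50 h libraries for 20 members and above for 3, against 25.9% and 25.8% of all tested genes. Of the 13, 12 were sterol synthesis genes, out of 18, and the remaining one was STARD4, a carrier of cholesterol within the cell. No fatty acid gene changed in this interval. The median log2 change was -0.56 over the sterol synthesis genes, -0.10 over the fatty acid genes and 0.01 over all tested genes. The fatty acid median was -0.23 within replicate 1 and 0.04 within replicate 2. It was -0.02 and -0.16 without replicate 1 or 2 at 50 h, and -0.22 and -0.21 without replicate 1 or 2 at 72 h. ACAT2 had a log2 change of -1.11 ± 0.10 (SE), to 0.462 times its 50 h mean (adjusted p 0.000724). HMGCS1 changed by -0.97 ± 0.08 (SE) (adjusted p 0.000534), CYP51A1 by -0.75 ± 0.09 (SE) (0.00237) and DHCR7 by -0.84 ± 0.15 (SE) (0.0156).

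Of the 9 other lowered genes 8 were sterol synthesis genes. MVD, which makes isopentenyl pyrophosphate, had 70.4 and 65.4 TPM at 34 h, then 141 and 102 at 42 h, 142 and 94.4 at 50 h, finally 59.4 and 67.6 at 72 h. Its replicates were far apart at 42 and 50 h, and its log2 change from 50 h to 72 h was -0.86 ± 0.21 (SE), with -1.25 and -0.48 within replicates 1 and 2 (adjusted p 0.0465). FDFT1, the squalene synthase, had 429 and 380.2 TPM at 34 h, then 543 and 471 at 42 h, 454 and 422 at 50 h, finally 285 and 318 at 72 h as the sum of 2 Ensembl rows, and changed by -0.54 (0.0195). HSD17B7, a keto-reductase of the ring steps with near-identical pseudogene copies, had 21.8 and 21.8 TPM at 34 h, then 31.7 and 25.3 at 42 h, 24.2 and 22.6 at 50 h, finally 12.8 and 14.1 at 72 h, and changed by -0.75 (0.0159). In both genes the 72 h libraries were the lowest of the 8. NSDHL, which acts in removing the ring methyl groups, had 33.2 and 31.7 TPM at 34 h, then 44.8 and 41.4 at 42 h, 40.4 and 35.3 at 50 h, finally 24.7 and 26.9 at 72 h, and changed by -0.53 (0.0310). STARD4 had 30.9 and 29.4 TPM at 34 h, then 41.7 and 36.9 at 42 h, 33.2 and 25.9 at 50 h, finally 18.2 and 19.9 at 72 h, and changed by -0.60 (0.0440). In each of these 5 genes both 72 h libraries were under both 50 h libraries. IDI1, FDPS, SQLE and MSMO1 were lowered by log2 changes between -0.63 and -0.45, with adjusted p-values from 0.00947 to 0.0168. LSS did not pass (0.0570) but did with the replicate block (0.0416), and likewise ACLY (0.0728 and 0.0367).

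ABCA1 was the 1 member raised from 50 h to 72 h, 2.06-fold or 0.94 ± 0.17 (SE) on the log2 scale, with 1.04 and 0.84 within replicates 1 and 2 (adjusted p 0.0164). ABCG1 and MYLIP had log2 changes of -0.28 and -0.21 and did not pass (0.569 and 0.487). ABCA1, ABCG1 and MYLIP, whose 42 h libraries were all below their 34 h libraries, were thus apart at 72 h. Against 34 h ABCA1 had a log2 change of 0.49 (adjusted p 0.0782), MYLIP of -1.02 ± 0.16 (SE) (0.00269) and ABCG1 of -0.997 (0.0254).

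The comparisons of 42 h with 34 h and of 72 h with 50 h have no library in common, but both come from 1 fit with a shared estimate of the spread, so their calls are not independent. Of the 7 members raised in the first, 5 (71.4%) were lowered in the second, which is 38.5% of the 13 lowered there: ACAT2, HMGCS1, IDI1, CYP51A1 and DHCR7. Among all tested genes 59 were, which is 22.2% of the raised and 8.98% of the lowered ones, or 0.396% of tested genes. In the fits without 1 library, ACAT2, HMGCS1 and CYP51A1 kept their fall from 50 h to 72 h in all 8, and each of the other 11 calls was lost in 1 to 8. That of NSDHL was lost in all 8 (adjusted p 0.0513 to 0.185) and that of STARD4 in 7 (0.0363 to 0.219). The count of members called was 6 and 8 without replicate 1 or 2 at 50 h, and 3 and 4 without replicate 1 or 2 at 72 h. Marker sums moved over this interval too, and their part in the result was not tested. The 4 neuron markers summed to 247 to 312 TPM at 50 h and 182 to 215 TPM at 72 h, with 3 of 4 at 1 TPM or more in both libraries at each time. Of these TUBB3 was lower at 72 h, STMN2 was higher, with 5.67 and 4.81 TPM against 8.01 and 7.10 TPM, and DCX and ELAVL3 overlapped between the times. The neural crest markers summed to 2.90 to 3.95 TPM and then 7.08 to 7.21 TPM. Of these PAX3 went from 0.729 and 0.539 to 4.81 and 4.24 TPM, SOX10 overlapped between the times and FOXD3 was listed at 0 at 72 h. The mesoderm and endoderm markers summed to 15.4 to 17.4 TPM and then 2.55 to 3.02 TPM, with EOMES, GATA4 and SOX17 listed at 0 at 72 h. The pluripotency markers summed to 2325 to 2482 TPM and then 1698 to 1783 TPM, and the neural progenitor markers to 441 to 493 TPM and then 674 to 717 TPM.

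**Figure D4:**
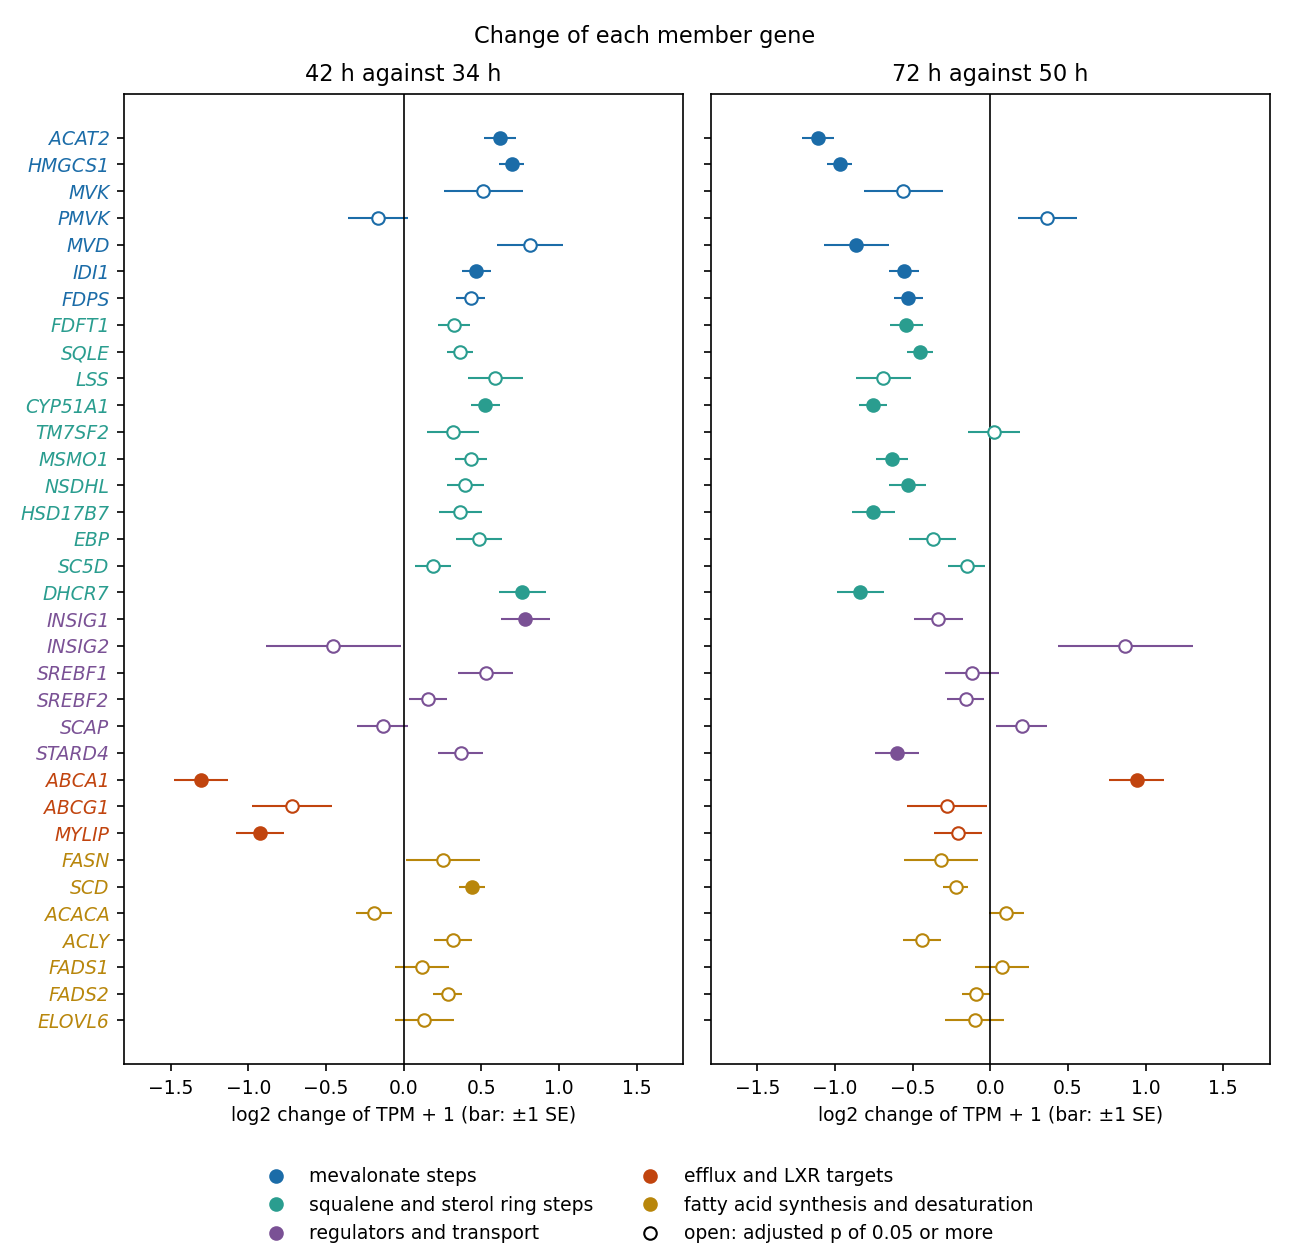
Log2 change of TPM + 1 (points, bars of 1 SE; filled where the adjusted p is under 0.05) of each of the 34 members at 42 h against 34 h (left) and at 72 h against 50 h (right). On the left 7 genes are raised and ABCA1 and MYLIP lowered; on the right 13 genes are lowered and ABCA1 is raised.

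Across the whole course, 72 h against 34 h, 5 members were raised and 10 lowered, where 12.7% of all tested genes were raised and 11.3% lowered. In either direction 24.0% of all genes were called. Both 72 h libraries lay above both 34 h libraries for 10 members and below for 15, against 36.7% and 27.9% of all tested genes. Of the 18 sterol synthesis genes 7 were lowered and 2 raised, and 13 had a lower mean log2 level at 72 h. CYP51A1 had a log2 change of -0.72 ± 0.09 (SE) (adjusted p 0.00104), MSMO1 of -0.71 ± 0.10 (SE) (0.00204), HMGCS1 of -0.61 ± 0.08 (SE) (0.00134) and SQLE of -0.48 ± 0.08 (SE) (0.00499). HSD17B7, FDFT1 and STARD4 were lowered too, by log2 changes of -0.65, -0.42 and -0.64. The fall of ACAT2 was at the threshold (0.0494, and 0.0583 with the replicate block). The marker levels given above moved over the same interval, and their part in the result was not tested. POU5F1 had 1165 and 1152 TPM at 34 h against 354 and 388 at 72 h, and TDGF1 had 743 and 785 against 2.94 and 6.13. SOX2 and LIN28A went the other way, SOX2 from 224 and 211 to 348 and 333 TPM and LIN28A from 908 and 897 to 1078 and 970 TPM.

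Raised at 72 h were SREBF1, SCD, FADS2 and 2 sterol enzymes, PMVK and TM7SF2. PMVK, the phosphomevalonate kinase, had 22.9 and 18.3 TPM at 34 h, then 20.9 and 15.7 at 42 h, 32.0 and 24.3 at 50 h, finally 34.4 and 38.3 at 72 h. Its 72 h libraries were above all others, 1.77-fold over 34 h (0.80 ± 0.19 (SE), adjusted p 0.0192). TM7SF2, a sterol reductase of the ring steps, had 56.6 and 43.9 TPM at 34 h, then 69.5 and 55.9 at 42 h, 80.3 and 68.9 at 50 h, finally 68.8 and 83.2 at 72 h, with a log2 change of 0.59 ± 0.17 (SE) that was 0.28 and 0.91 within replicates 1 and 2 (adjusted p 0.0376). SCD was 0.27 above 34 h (0.0453). MVK, the mevalonate kinase, EBP, the sterol isomerase, and SC5D, the sterol desaturase, passed in no contrast and had 16.8 to 36.1 TPM, 82.4 to 133 TPM and 47.1 to 71.5 TPM over the 8 libraries. The calls of HMGCS1, SQLE, CYP51A1, MSMO1 and MYLIP at 72 h held in all 8 fits without 1 library, and the other 10 were each lost in 2 to 8, that of ACAT2 in all 8 (adjusted p 0.0567 to 0.263). Without replicate 1 or 2 at 34 h 9 and 6 members were called, and without replicate 1 or 2 at 72 h 7 and 8.

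Most members were higher in replicate 1 at the first 3 times, which was not so at 72 h. Replicate 1 was the higher one for 28 of 34 members at 34 h, for 29 at 42 h and for 28 at 50 h. The median log2 differences were 0.12, 0.15 and 0.13. At 72 h it was the higher one for 11, with a median of -0.10. The neuron marker TUBB3, most of that list's sum, had the same order of replicates, with 261 and 209.6 TPM at 34 h, then 311 and 235 at 42 h, 299.9 and 235 at 50 h, finally 168 and 201 at 72 h, and its part in the result was not tested. The rest of the neuron list did not share this order throughout. DCX kept it only in the 34 h libraries, and its 72 h levels were 5.92 and 5.02 TPM. STMN2 departed from it in the 42 h and 72 h libraries, the latter with 8.01 and 7.10 TPM. ELAVL3 did so only in the 50 h libraries, with 0.573 and 1.10 TPM. Over all tested genes replicate 1 was the higher for between 50.3% and 55.8%, with medians from 0.00 to 0.03. Within replicate 1 the median log2 change of the 18 sterol synthesis genes was 0.50 at 42 h against 34 h and -0.68 at 72 h against 50 h, and within replicate 2 it was 0.36 and -0.48, so the direction was the same in both batches.

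Other genes of the pathway, 62 from a textbook list, were set beside the members. Of these 56 were tested: 2 were raised at 42 h against 34 h, 2 raised and 2 lowered at 50 h, and 6 raised and 8 lowered at 72 h, with none called between 42 h and 50 h and 6 lowered from 50 h to 72 h. Over all tested genes 2.58%, 6.26%, 24.0%, 0.0939% and 7.33% were called in these 5 comparisons. With the replicate block 4 were called at 42 h, where CYB5A (adjusted p 0.226, and 0.0465 with the block) and MID1IP1 (0.192 and 0.0243) were added. The block also added CYB5A at 50 h (0.0534 and 0.00757) and TECR, the last reductase of fatty acid elongation, at 72 h (0.0514 and 0.0333), and it ended the call of ELOVL7 from 50 h to 72 h (0.0381 and 0.0535). The median log2 changes of the 56 genes against 34 h were 0.02, 0.09 and 0.04. SOAT1, which esterifies cholesterol for storage, had 4.22 and 3.87 TPM at 34 h, then 11.7 and 14.0 at 42 h, 12.5 and 12.9 at 50 h, finally 12.2 and 12.1 at 72 h. All later libraries were more than 2 times the level of either 34 h library, and the log2 change was 1.45 ± 0.15 (SE) at 42 h (adjusted p 0.00149), 1.45 at 50 h (0.000927) and 1.38 at 72 h (0.000418). MLXIPL, the carbohydrate-responsive factor of lipid synthesis genes, had 15.1 and 21.5 TPM at 34 h, then 43.8 and 34.4 at 42 h, 39.0 and 38.0 at 50 h, finally 11.2 and 15.7 at 72 h. It rose by 1.07 ± 0.21 (SE) at 42 h (0.0413), stood 1.05 above 34 h at 50 h (0.0241) and had a log2 change of -1.47 ± 0.21 (SE) from 50 h to 72 h (0.00573). The 2 lowered at 50 h were ELOVL7, an elongase (-0.89, adjusted p 0.0495, and 0.0688 with the replicate block), and MID1IP1, an activator of acetyl-CoA carboxylase (-0.80, 0.0380). At 72 h the largest changes besides SOAT1 were falls of ELOVL7 (-1.82), the fatty acid carrier FABP5 (-1.21), the electron donor CYB5A (-1.19) and malic enzyme ME1 (-1.14), with adjusted p-values between 0.000113 and 0.00495.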

How the data were processed

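Poly(A) RNA of 8 libraries, 2 per time point, was measured. The authors deposited TPM per Ensembl gene in 1 table, 37951 rows; Salmon 1.9.0 and GRCh38 are named per the submitters' processing notes, and the annotation, strand setting and gene-level summary are not given in the sources used here. TPM keeps no read number, so depth is unknown and no counting interval was computed. Zeros are described as listed at 0. Rows with the same symbol were summed, which concerned 3 members (ACACA, FDFT1, LSS). The 14908 genes that reached 1 TPM in 2 or more libraries were fitted as log2(TPM + 1) in limma 3.58.1 (R 4.3.3), with 1 mean per time point over all 8 libraries (4 residual degrees of freedom), a variance trend and Benjamini-Hochberg adjustment over all tested genes, two-sided. Log2 changes understate the change of genes with low values. An exact test of 2 libraries against 2 was not used.

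The labels give the replicate number as batch of an independent biological replicate, so it pairs libraries across time; differences between replicates correlated across genes at 0.0949, 0.195 and 0.142 between 34, 42 and 50 h, and at -0.104 to -0.0445 between these and 72 h. The fit with this block is given where it changes a call in a comparison of time points. The members and lists were chosen with earlier results of these data known. Values are printed for each member called in any contrast, the regulators and the efflux genes, and for other pathway genes the up to 5 called with the largest change at each time. Alternatives were another pseudocount (0.1), other filters, TMM rescaling of the TPM, quantile scaling, leaving out mitochondrial genes, no variance trend, the compared time points alone, a minimum change of 0.5 (treat), rows apart and leaving out each library. Gene positions are from GENCODE release 29 on GRCh38, and promoter sequences from RefSeq on GRCh38.p14.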

Additional observations from a re-analysis of the deposited data

How the results depend on the processing

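With 2 libraries per time point the number of members called moved with the settings, while none of the calls changed direction under any of the 19 alternatives. The report counts 9 members at 42 h, 8 at 50 h and, for 72 h against 34 h, 15, with 14 from 50 h to 72 h. Without the filter on low values, which tests more genes, 4 were called at 42 h and 4 at 50 h. Without the variance trend the counts were 3 at 42 h, 3 at 50 h and 8 from 50 h to 72 h. With the compared time points fitted alone, which leaves 2 residual degrees of freedom, they were 1 at 42 h (HMGCS1), 1 at 50 h (ACAT2) and 3 from 50 h to 72 h (ACAT2, HMGCS1, CYP51A1). When a log2 change above 0.5 was required, 0 members passed in each of the 3 comparisons with 34 h, and 2 passed from 50 h to 72 h. Leaving out 1 library gave 1 to 12 members at 42 h, 1 to 8 at 50 h, 6 to 15 at 72 h, 3 to 12 from 50 h to 72 h and 12 to 23 over all times. With the replicate block 8, 8, 14 and 16 members were called. Apart from the calls named in the report, it changed no other call of a member in a comparison of time points. Over all times the block moved the F-test count to 22, a change that is not given by gene. TMM rescaling gave 8, 7, 16 and 15, quantile normalization 9, 8, 15 and 15, and Ensembl rows kept apart 6, 7, 14 and 12. The median log2 change of the 18 sterol synthesis genes lay between 0.36 and 0.51 at 42 h against 34 h and between -0.62 and -0.51 from 50 h to 72 h over all alternatives. Medians near 0 changed sign, and leaving out 1 library gave these ranges: between 42 h and 50 h from -0.23 (without replicate 2 at 42 h; -0.03 without replicate 1 at 50 h) to 0.18 for the mevalonate genes (0.05 in the full fit), from -0.19 to 0.0302 (without replicate 2 at 50 h) for the regulators (-0.13), and from -0.0653 (without replicate 1 at 50 h) to 0.19 for the fatty acid genes (0.06). From 50 h to 72 h the median of the 3 efflux genes (-0.21) was 0.37 with a mean of at least 5 TPM, which drops ABCG1, and from -0.26 to 0.0695 (without replicate 1 at 50 h) with 1 library left out. Without 1 library the median of the regulators from 50 h to 72 h (-0.14) ran from -0.36 to 0.09, and that of the fatty acid genes at 72 h against 34 h (0.14) from -0.08 to 0.33. The cause of the other sign changes was not tested.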

Other observations

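Of the 3 members with more than 1 Ensembl row, the rows of ACACA split differently between replicates at 34 h: 1 row had 43.8 and 28.9 TPM and the other 14.2 and 34.3 TPM, where the sums were 58.0 and 63.2 TPM. The second row of LSS was listed at 0 in the 4 replicate 1 libraries and in replicate 2 at 34 h, and had 9.88, 8.89 and 3.73 TPM in replicate 2 at 42, 50 and 72 h. The 2 rows of FDFT1 had 239.7 and 232.5 TPM and 189 and 148 TPM at 34 h. These rows were looked at after their values were seen.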
